A study of Mus musculus with 14 samples.

Results

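Gene expression was compared between the retinal pigment epithelium (RPE) of Clic4 KO mice and that of floxed Clic4 controls, which gave 4 of the 14 RNA-seq libraries of the series. The KO libraries, KO1 and KO2, came from Best1-Cre+/-; Clic4f/f mice, in which the Best1 promoter drives Cre recombinase in the RPE, and the control libraries, Ctrl1 and Ctrl2, from Clic4f/f mice without Cre. Both groups therefore carried the floxed alleles, on the C57BL/6J strain, and differed in the Cre transgene and the deletion together. All mice were 3-month-old males, and each library held the RPE cells detached with trypsin from both eyes of a single mouse, sequenced as stranded poly(A) RNA. The other 10 libraries formed a WT set, with 3 C57BL/6J wild-type and 3 KO libraries, and a CreCtrl set, with 2 Best1-Cre+/-; Clic4WT/WT and 2 KO libraries. They enter only the last comparison.

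The RPE is a pigmented monolayer between the photoreceptors and the choroid. It regenerates visual chromophore, engulfs shed outer segments, moves ions, lactate and glucose, and lays down part of Bruch's membrane. CLIC4 is a small protein of the chloride intracellular channel family, found in the cytosol and on endosomes and membranes, and known for roles in epithelial trafficking and in TGF-beta signalling. An RPE preparation can also hold cells of the choroid (fibroblasts, endothelium, pericytes, immune cells), of the neural retina and of the surface of the eye. Each of these has its own marker genes, which were read as lists beside the RPE genes.

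The 4 libraries held 14276129 (Ctrl1), 28581114 (Ctrl2), 16645404 (KO1) and 18089350 (KO2) counts. The table listed 42687 genes, and 15287 passed the filter on low counts and were tested. Levels are given as CPM, counts scaled to a common library size with TMM factors, and differences as KO minus Ctrl on the log2 scale. At least 10 counts were found for 15328 and 16010 genes in the Ctrl libraries and for 14110 and 14494 genes in the KO libraries. The 10 genes marking the RPE were present in every library, with summed levels of 47530 and 47110 CPM in Ctrl1 and Ctrl2 and of 72130 and 74580 CPM in KO1 and KO2. Across genes, Pearson's r of log2 CPM was 0.940 between KO1 and KO2 and 0.936 between Ctrl1 and Ctrl2. Between groups, r was 0.903 and 0.902 for Ctrl1 and only 0.845 and 0.843 for Ctrl2 (KO1 and KO2 in that order), so that Ctrl1 lay nearer to the KO libraries than Ctrl2 did. By the median absolute log2 difference, Ctrl1 lay nearer to KO1 (0.371) and KO2 (0.391) than to Ctrl2 (0.418), while KO1 and KO2 were the closest pair (0.352). Genes are not independent replicates, and these values are a description of the libraries.

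The difference between the groups was one-sided. In edgeR's quasi-likelihood test, the main test here, no gene passed an adjusted p of 0.05 and a fold change of 1.5 (0 of 15287, 0%), and the smallest adjusted p was 0.106. At an unadjusted p under 0.05 edgeR counted 1846 genes. With the fold change added, 1735 genes (11.3%) were lower in KO and 94 (0.615%) were higher. DESeq2's Wald test, at the same adjusted p and fold change, called 1126 of the tested genes lower (7.37%) and 9 higher (0.0589%). Its calls depend on the tool, and below a gene is said to have risen or fallen only where it passed this DESeq2 test. Both KO libraries lay below both Ctrl libraries for 3484 genes (22.8%) and above both for 2789 (18.2%), while the median difference over all tested genes was 0.01 on the log2 scale, or -0.11 with library size as the only scaling. With 2 libraries a side, an exact permutation test of a single value cannot go below p = 0.333.

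Of the 1735 lower genes, KO1 held the lower value in 915 and KO2 in 723. The log2 ratio of KO1 to Ctrl1 and that of KO2 to Ctrl2, which share no library, had r = 0.555 across the 15287 genes, and the crossed ratios had r = 0.558. The count of lower genes lay between 1210 and 1845 when each library was left out in turn. The count of higher genes was less stable, at 370 without Ctrl1, 191 without Ctrl2 and 44 without KO2. The number of genes called by edgeR went from 0 to 512 without Ctrl1 and to 26 without Ctrl2.

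**Figure D1:**
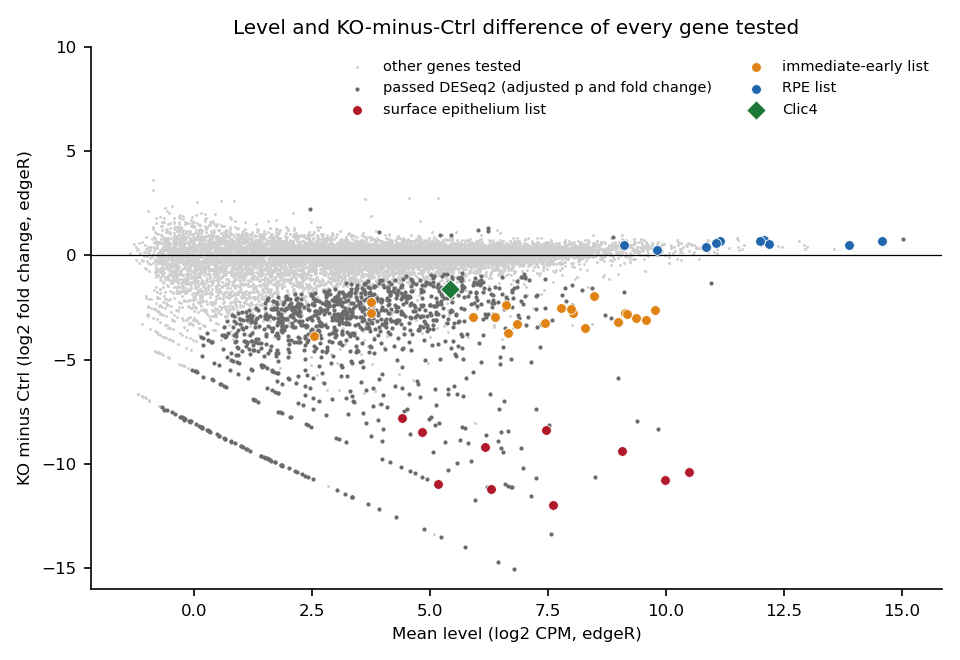
Mean level (x axis, log2 CPM) and KO-minus-Ctrl difference (y axis, log2 fold change of edgeR) of the 15287 genes tested, 1 point a gene. Dark points passed DESeq2, and nearly all of these lie below 0, while the RPE list sits slightly above 0 at high levels.

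**Figure D2:**
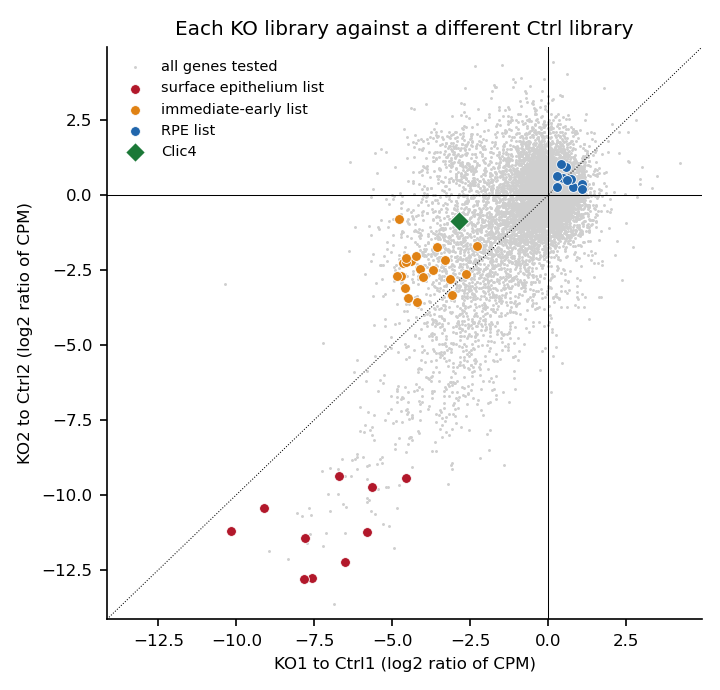
Log2 ratio of KO1 to Ctrl1 (x axis) against that of KO2 to Ctrl2 (y axis), 1 point a gene, with the dotted line at equal ratios. The surface epithelium and immediate-early lists lie below 0 on both axes, and the RPE list lies above 0 on both.

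The targeted gene was lower in both KO libraries. Clic4 (ENSMUSG00000037242, GRCm38 chr4:135213969-135272814, minus strand, 5 merged exon blocks) was at 69.2 and 59.5 CPM in Ctrl1 and Ctrl2 and at 9.40 and 32.7 CPM in KO1 and KO2. The groups did not overlap, and KO2 kept more Clic4 counts than KO1. The difference of -1.61 (SE 0.58) had an adjusted p of 0.333 in edgeR and of 0.0780 in DESeq2. Left-out libraries moved it from -2.77 (without KO2) to -0.98 (without KO1). The counts cover every exon of the gene, so transcripts that keep the exons outside the deletion, and those of cells without Cre, are included.

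Of the 5 CLIC family members tested, 4 lay below the Ctrl libraries, 1 lay above and 2 fell. Over all genes the shares were 22.8%, 18.2% and 7.37%. Clic6, the member with the most counts, was at 782 and 1234 CPM in Ctrl and at 1516 and 1332 CPM in KO, a difference of 0.50 that DESeq2 did not pass. Clic1 fell, from 56.3 and 98.0 CPM to 18.0 and 31.9 CPM (-1.63, SE 0.41, DESeq2 adjusted p = 0.00978). Clic3 fell from 3.06 and 25.2 CPM to 0.439 and 0.345 CPM (-5.16, SE 1.16, DESeq2 adjusted p = 1.31e-05). Both Clic1 and Clic3 were higher in Ctrl2 than in Ctrl1, as were the surface epithelium genes described next. The part of those genes in these values was not tested.

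The largest differences were those of genes of stratified surface epithelium, the tissue of cornea and conjunctiva. All 10 markers on that list fell, against 7.37% of all genes, with a median of -9.88 beside 0.01 for all genes. Their summed level was 2247 CPM in Ctrl1 and 12080 CPM in Ctrl2, against 11.3 CPM in KO1 and 2.24 CPM in KO2. The Ctrl libraries thus differed from each other by 5.38 times in this list, and Ctrl2 was the higher for all 10 members. The median was -7.91 without Ctrl2 and -12.51 without KO1. Krt12, the keratin of the corneal epithelium, was at 245 and 3800 CPM in Ctrl1 and Ctrl2 and at 1.00 and 1.27 CPM in KO1 and KO2 (-10.79, SE 1.67). Krt5, a basal-cell keratin, was at 875 and 4849 CPM in Ctrl and at 3.76 and 0.575 CPM in KO (-10.37, SE 1.46). Krt15, another basal keratin, was at 617 and 1521 CPM in Ctrl and at 3.13 and 0.115 CPM in KO (-9.38, SE 1.39). In none of these did a KO library reach a Ctrl library.

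Epithelial genes also led the lowest values over all genes. Among genes with a mean log2 CPM of at least 5, the 12 most negative included Pkp1 and Dsg3 (desmosomes), Aqp5 (the corneal aquaporin), Krt6a and Krt4 (epithelial keratins), Muc4 (a membrane mucin), Lypd3, Ifi202b, Fam84a, Gm9573 and the pseudogene Gm28437. Pkp1 was at 50.8 and 390 CPM in Ctrl and had 0 counts in both KO libraries, which makes it at least 2448-fold lower than the Ctrl mean, and at least 565-fold lower than Ctrl1, with 3 counts over the KO group as the floor. On that scale Dsg3, at 22.1 and 323 CPM in Ctrl, was at least 1919-fold lower than the Ctrl mean and 246-fold lower than Ctrl1, and Fam84a at least 834-fold and 102-fold lower. Aqp5 was at 33.4 and 721 CPM in Ctrl, with 1 count in the KO libraries together, a Ctrl to KO ratio, with counts pooled within groups, of 15830 (95% exact counting interval 2841 to 625400). That interval covers counting error only and leaves out the spread between Ctrl1 and Ctrl2. Of the 12, 11 fell, which their choice by differences in the same libraries made likely. Gm28437 did not pass DESeq2, and it was at 135 CPM in Ctrl1 and 0.712 CPM in Ctrl2, so that 1 library carried it.

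Among genes with at least 10 counts in each KO library, a rule added after the values were seen, the lowest after Krt12 and Krt5 were Aldh3a1, Col17a1, Gsto1, Sfn, Hbegf, Ppl, Myh11, Egln3, Tns4 and Lmo7. Aldh3a1, the aldehyde dehydrogenase abundant in cornea, was at 268 and 3345 CPM in Ctrl and at 3.70 and 7.65 CPM in KO (-8.31, SE 1.45). Gsto1, an omega-class glutathione transferase, was at 352 and 2333 CPM in Ctrl and at 5.64 and 5.35 CPM in KO (-7.93, SE 1.09). Myh11, the smooth-muscle myosin, stood apart within the controls, at 3.57 CPM in Ctrl1 and 203 CPM in Ctrl2, with 0.752 and 1.15 CPM in KO. Each of the 12 fell, which their choice by the same values made likely, and each was higher in Ctrl2 than in Ctrl1.

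Epithelial junction genes split along the same line. Of 12 tested, 6 lay below the Ctrl libraries, 1 lay above, and 3 fell, beside 22.8%, 18.2% and 7.37% of all genes. Cdh1, the E-cadherin of surface epithelia, fell from 23.6 and 188 CPM to 0.564 and 0.115 CPM (-8.29, SE 1.37). Jup, encoding plakoglobin, fell from 92.3 and 525 CPM to 16.7 and 13.1 CPM (-4.38, SE 0.86). F11r, encoding the tight-junction protein JAM-A, fell from 29.9 and 70.0 CPM to 4.07 and 4.37 CPM (-3.56, SE 0.49). In contrast Ctnna1, Cldn1 and Ctnnb1, the members with the most counts, differed by 0.16, 0.71 and 0.01 and did not pass. The part that the surface epithelium genes had in the values of the junction genes was not tested.

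**Figure D3:**
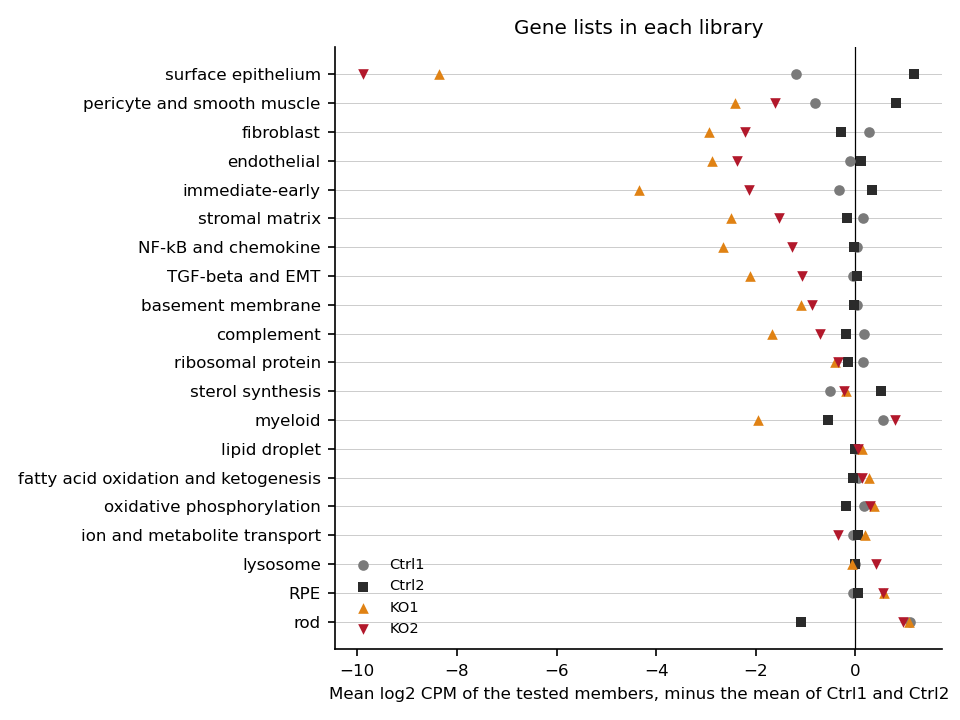
Mean log2 CPM of the tested members of 20 gene lists (rows) in each library, as the difference from the mean of Ctrl1 and Ctrl2 (x axis, log2). Both KO libraries lie far left for surface epithelium, pericyte, fibroblast, endothelial and immediate-early genes and slightly right for RPE genes, and Ctrl2 stands apart from Ctrl1 in surface epithelium and rod genes.

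Immediate-early genes, which cells switch on within minutes of a stimulus and which encode mostly transcription factors and feedback inhibitors, were lower as a whole. All 20 members had both KO libraries below both Ctrl libraries, against 22.8% of all genes, and 11 fell, against 7.37%. The median was -2.88. Their summed level was 8392 CPM in Ctrl1, 12680 CPM in Ctrl2, 608 CPM in KO1 and 2368 CPM in KO2. KO1 was below KO2 in 20 of 20, so the size of the difference rested on the KO library: the median was -4.63 without KO2. Egr1, a zinc-finger factor, was at 1098 and 1928 CPM in Ctrl and at 175 and 312 CPM in KO (-2.64, SE 0.44, DESeq2 adjusted p = 3.83e-07). Zfp36, which destabilises cytokine mRNAs, was at 963 and 1753 CPM in Ctrl and at 58.9 and 262 CPM in KO (-3.08, SE 0.76, DESeq2 adjusted p = 0.000104). Fos, the AP-1 subunit, was at 1160 and 1193 CPM in Ctrl and at 45.6 and 249 CPM in KO (-3.00, SE 0.79, DESeq2 adjusted p = 0.00026).

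**Figure D4:**
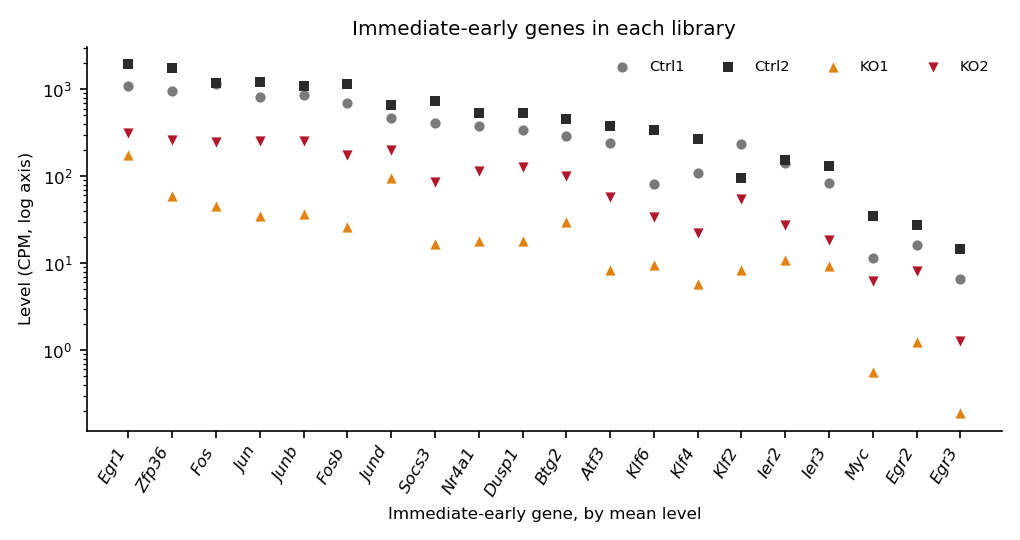
Level (y axis, CPM, log axis) of the 20 immediate-early genes (x axis, by mean level) in each library, 1 symbol a library. For every gene KO1 is lowest, KO2 next and both Ctrl libraries higher.

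The NF-kB and chemokine list moved the same way. Of its 20 genes, 18 had both KO libraries below both Ctrl libraries and 10 fell, against 22.8% and 7.37% of all genes. The median was -1.82, and -2.95 without KO2. Cebpd, a factor of the acute-phase response, fell from 202 and 215 CPM to 24.4 and 58.5 CPM (-2.33, SE 0.44). Ptgs2, the inducible cyclooxygenase, fell from 130 and 140 CPM to 12.4 and 43.8 CPM (-2.26, SE 0.59). Cebpb, at 139 and 192 CPM in Ctrl and 32.5 and 102 CPM in KO, did not pass (-1.30, SE 0.55). Heat shock genes were mixed: 6 of 10 lay below the Ctrl libraries and 2 fell, the cochaperone gene Dnajb1 (133 and 462 CPM against 49.6 and 52.8 CPM) and Hspb1 (19.4 and 26.8 CPM against 1.82 and 3.68 CPM), while Hspa8 and Hsp90aa1 differed by 0.29 each and did not pass.

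Promoters of these stimulus-responsive genes were read for motifs of the factors known to drive them: CREB (CRE, TGACGTCA), SRF (the CArG box), NF-kB (kB, GGGAATTTCC with any base at the fifth letter) and AP-1 (TGANTCA), on both strands, in the 250 bases before the RefSeq start (GRCm38.p6). A promoter was held for 16 of the 20 immediate-early genes and 15 of the 20 NF-kB genes. A list gene was counted if any of its promoters held the motif, while the share of all is over 32851 single promoters. A gene with several promoters thus had several chances, and the 2 measures are not the same. The CRE was found in 2 of the 16 (Btg2, Dusp1) and in 1.55% of all promoters, and the CArG box in 2 of the 16 (Egr2, Zfp36) and in 1.47% of all. The NF-kB letters were found in 5 of the 15 (Csf1, Cxcl1, Cxcl2, Il6, Nfkbia) and in 0.356% of all promoters, and the AP-1 letters in 4 of the 15 (Cxcl10, Il6, Lif, Tnfaip3) and in 6.75% of all. The NF-kB and AP-1 letters were in 0 of the 16 immediate-early windows, and the CRE and CArG letters in 0 of the 15 NF-kB windows. A match describes the sequence and not binding. The 4 windows below were chosen, after their values were seen, as genes that fell and that hold a match, shown in capitals: the CArG box of Zfp36 (chr7:28379229-28379478, minus strand), the CRE of Btg2 (chr1:134079156-134079405, minus strand), and the NF-kB letters of Nfkbia (chr12:55492648-55492897, minus strand) and Cxcl1 (chr5:90890995-90891244, plus strand), each written 5′ to 3′ up to the start.
Zfp36: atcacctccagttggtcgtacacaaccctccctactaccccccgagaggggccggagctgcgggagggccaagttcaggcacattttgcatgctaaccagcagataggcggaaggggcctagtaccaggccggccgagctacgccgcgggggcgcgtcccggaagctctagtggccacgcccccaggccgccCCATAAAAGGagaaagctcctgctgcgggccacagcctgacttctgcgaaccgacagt
Btg2: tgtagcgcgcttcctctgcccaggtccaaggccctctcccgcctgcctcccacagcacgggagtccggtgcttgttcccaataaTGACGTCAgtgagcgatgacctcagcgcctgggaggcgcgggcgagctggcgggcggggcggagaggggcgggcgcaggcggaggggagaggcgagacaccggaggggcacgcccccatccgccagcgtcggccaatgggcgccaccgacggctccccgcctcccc
Nfkbia: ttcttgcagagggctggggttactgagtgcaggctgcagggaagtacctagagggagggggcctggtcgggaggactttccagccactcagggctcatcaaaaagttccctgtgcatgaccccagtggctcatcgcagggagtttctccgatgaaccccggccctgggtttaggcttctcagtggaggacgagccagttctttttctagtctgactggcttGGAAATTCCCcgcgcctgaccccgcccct
Cxcl1: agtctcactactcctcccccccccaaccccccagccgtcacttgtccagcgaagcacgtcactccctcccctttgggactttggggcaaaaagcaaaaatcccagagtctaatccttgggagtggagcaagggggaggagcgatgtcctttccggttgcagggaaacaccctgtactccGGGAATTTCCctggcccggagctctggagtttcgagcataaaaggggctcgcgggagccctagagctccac

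Of these 4, Btg2, an antiproliferative gene, fell from 293 and 450 CPM to 29.7 and 101 CPM (-2.51, SE 0.61). Nfkbia, the inhibitor that NF-kB itself induces, fell from 123 and 123 CPM to 29.2 and 38.9 CPM (-1.86, SE 0.25). Cxcl1, a neutrophil chemokine, fell from 36.9 and 36.6 CPM to 2.88 and 14.7 CPM (-2.06, SE 0.72). Nfkbia thus had the closest replicates of the 4, and Cxcl1 the widest KO spread.

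Genes of the choroidal and scleral stroma were also lower. Of 10 fibroblast markers, 9 had both KO libraries below both Ctrl libraries and 6 fell, against 22.8% and 7.37% of all genes. The median was -2.94, and from -3.83 (without KO2) to -2.35 (without KO1) with a library left out. Their summed level was 2696 and 1564 CPM in Ctrl and 460 and 600 CPM in KO, and here Ctrl1 was the higher control. Dcn, the small proteoglycan decorin, was at 982 and 639 CPM in Ctrl and at 42.5 and 161 CPM in KO (-2.99, SE 0.67, DESeq2 adjusted p = 3.25e-05). Fbln1, encoding fibulin-1, was at 403 and 163 CPM in Ctrl and at 40.2 and 11.4 CPM in KO (-3.45, SE 0.75, DESeq2 adjusted p = 5.02e-06). Fbn1, encoding the microfibril protein fibrillin-1, was at 321 and 285 CPM in Ctrl and at 214 and 206 CPM in KO and did not pass (-0.53, SE 0.22). In such bulk samples fewer cells of a type and less RNA per cell cannot be told apart.

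Vascular markers followed. Of 10 endothelial genes, 9 were below and 7 fell (median -2.40). For this list and the pericyte list below, the shares over all genes were 22.8% below and 7.37% that fell. The endothelial genes went from summed levels of 137 and 130 CPM in Ctrl to 30.02 and 52.6 CPM in KO. The member with the most counts, Plvap, a protein of fenestrated capillaries, was at 42.3 and 24.3 CPM in Ctrl and at 12.2 and 29.6 CPM in KO, where the groups overlapped. Cdh5, the endothelial cadherin, fell from 17.9 and 22.6 CPM to 1.07 and 6.09 CPM (-2.49, SE 0.79). Of 9 pericyte and smooth-muscle genes tested, 6 were below and 4 fell, Rgs5, Myh11, Notch3 and Des. Rgs5, a pericyte gene, was at 264 and 157 CPM in Ctrl and at 10.7 and 42.3 CPM in KO (-2.99, SE 0.69). Acta2 and Lmod1, the contractile genes with the most counts beside it, had Ctrl and KO values that overlapped (-0.07 and -0.06). The median of this list, -2.99, was -1.36 without Ctrl2 and -2.02 with at least 10 counts in every library. Ctrl2 was also the library that carried Myh11, whose part in the median was not tested.

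The matrix lists held genes that fell beside abundant genes that did not pass. Among all genes, 22.8% were below, 18.2% were above and 7.37% fell. Of 21 stromal matrix genes, 16 were below, 1 was above and 11 fell (median -2.32). Efemp1, encoding the Bruch's membrane protein fibulin-3 and chosen here after its values were seen, fell from 129 and 164 CPM to 19.4 and 21.4 CPM (-2.84, SE 0.25, DESeq2 adjusted p = 8.04e-16), with close replicates on both sides. The members with the most counts did not pass: Thbs1 was at 743 and 1168 CPM in Ctrl and at 1466 and 1022 CPM in KO, Timp2 differed by 0.05 and Sparc by -0.28. Of 20 basement membrane genes, 12 were below, 3 above and 8 fell (median -0.76). Timp3, the metalloproteinase inhibitor of Bruch's membrane, was at 5238 and 8966 CPM in Ctrl and at 8865 and 8638 CPM in KO, and Col8a2 and Col8a1 differed by 0.48 and 0.15, none of them passing. Of 20 TGF-beta and EMT genes, 13 were below and 7 fell (median -1.14, or -1.79 without KO2), among them Ccn1, a matricellular gene, from 261 and 590 CPM to 64.2 and 84.5 CPM. Vim and Ccn2, the others with the most counts, did not pass (-0.71 and -1.64).

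Of 12 complement genes tested, 6 were below and 5 fell, Serping1, C1s1, C4b, C3 and Cd55 (median -0.75, or -2.02 without KO2). For this list and the next, the shares over all genes were 22.8% below and 7.37% that fell. Serping1, the C1 inhibitor, went from 144 and 71.3 CPM in Ctrl to 8.52 and 31.5 CPM in KO (-2.42, SE 0.68). C4b went from 24.4 and 41.3 CPM to 8.34 and 3.62 CPM (-2.46, SE 0.51), and C3 from 14.2 and 21.3 CPM to 1.94 and 6.09 CPM (-2.14, SE 0.62). Of 16 antigen presentation and interferon genes, 6 were below and 2 fell, Irf1 (155 and 168 CPM against 14.4 and 39.7 CPM) and Psmb8 (12.1 and 22.03 CPM against 2.26 and 6.27 CPM), while B2m, H2-D1 and Cd74 had KO2 within or above the Ctrl range and KO1 below it. The part that the fibroblast and vascular markers had in the values of the matrix, complement and immediate-early lists was not tested.

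RPE genes themselves were higher in KO in most cases, by small amounts. All 10 differences were positive, 9 had both KO libraries above both Ctrl libraries, against 18.2% of all genes, and the median was 0.58, but none rose. Ttr, the retinol carrier partner transthyretin, was at 20930 and 16280 CPM in Ctrl and at 27670 and 33370 CPM in KO (0.71, SE 0.38). Rgr, the retinal G-protein-coupled receptor, was at 10740 and 13790 CPM in Ctrl and at 18560 and 16650 CPM in KO (0.52, SE 0.35). Rlbp1, the retinaldehyde-binding protein, was at 3845 and 3699 CPM in Ctrl and at 5829 and 5241 CPM in KO (0.55, SE 0.29). CPM values are shares of a library. Between the groups, the summed level of these 10 genes and those of the stromal and surface epithelium lists moved in opposite directions. Between Ctrl1 and Ctrl2 they did not: the RPE sum was 47530 and 47110 CPM. The surface epithelium sum was 2247 and 12080 CPM there, and the fibroblast sum 2696 and 1564 CPM. The part of the one in the other was not tested.

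Genes of other RPE functions differed by small amounts as well, beside 18.2% of all genes that lay above and 22.8% that lay below. Of 15 ion and metabolite transport genes, 8 lay above and 1 below (median 0.33), with Bsg, the lactate transporter subunit basigin, at 3168 and 3702 CPM in Ctrl and 4529 and 5770 CPM in KO. Of 73 oxidative phosphorylation genes, 71 had positive differences and 35 lay above (median 0.35, or 0.55 without Ctrl1). Of 18 lysosomal genes, 7 lay above and 1 below (median 0.39), and the median without KO2 was 0.07. Cst3, encoding cystatin C, was at 5586 and 5451 CPM in Ctrl and at 9430 and 8304 CPM in KO, and Ctsd, encoding the outer-segment protease cathepsin D, at 2704 and 2669 CPM in Ctrl and at 3708 and 3897 CPM in KO. None of these genes passed DESeq2 in the higher direction, which 0.0589% of all genes did.

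Lipid genes, which were of interest in the study's model of RPE lipid handling, mostly showed small differences. Over all genes, 18.2% lay above both Ctrl libraries, 22.8% lay below and 7.37% fell, and the droplet count above was at that share. Of 11 lipid droplet genes tested, 2 lay above and 1 below (median 0.10, or -0.00698 with library size as the only scaling), and Plin2, the droplet coat protein, was at 96.9 and 85.2 CPM in Ctrl and at 136 and 111.7 CPM in KO (0.45, SE 0.23). Of 18 fatty acid oxidation and ketogenesis genes, 5 lay above and 1 below (median 0.18, or 0.07 without KO1). Of 15 lipoprotein and cholesterol transport genes, 7 lay above and 1 below (median 0.24), with Pltp, the phospholipid transfer protein, at 1926 and 1654 CPM in Ctrl and at 2338 and 2944 CPM in KO (0.56, SE 0.29). In that list 1 gene fell, a share near that of all genes. Sterol synthesis had a median of -0.22 over 17 genes, with 1 below, and Ctrl2 exceeded Ctrl1 in 16 of them. The median turned to 0.32 without Ctrl2. No gene of the droplet, oxidation and sterol lists passed DESeq2.

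Oxidative-stress genes also held 1 gene that fell, while 7.37% of all genes fell, 18.2% lay above and 22.8% lay below. Of 21 antioxidant and metallothionein genes, 10 lay above and 3 below (median 0.27, or 0.13 without Ctrl1), and Gpx3, encoding the secreted glutathione peroxidase, fell from 799 and 660 CPM to 109 and 95.8 CPM (-2.83, SE 0.26, DESeq2 adjusted p = 1.43e-20). Its replicates were close in both groups. Mt1, a metallothionein, was at 2154 and 2007 CPM in Ctrl and at 2746 and 4766 CPM in KO (0.85, SE 0.36) and did not pass, nor did Mt2 (0.75, SE 0.34) or Cat (0.50, SE 0.31).

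Of 10 melanin synthesis genes, 4 lay above, 2 below, and 1 fell, beside 18.2%, 22.8% and 7.37% of all genes. The 1 that fell was Pmel, the melanosome fibril protein, from 199 and 713 CPM to 143 and 144 CPM (-1.67, SE 0.59). Its Ctrl libraries differed from each other more than Ctrl1 did from KO. Dct, the dopachrome tautomerase, differed by 0.07 and Slc24a5 by 0.62. Ribosomal protein genes had a median of -0.37 over 73 genes, or -0.12 without Ctrl1, with 27 below and 1 above, and 2 fell, among them Rplp0 (140 and 181 CPM against 67.1 and 70.9 CPM). It belongs to a family with many processed copies in the genome, which can take part of the reads. Of 15 clock genes, 4 lay below and 1 fell, shares near the 22.8% and 7.37% of all genes. That gene was Npas2, from 4.21 and 10.5 CPM to 0.188 and 0.460 CPM. Of 13 genes of apical microvilli and phagocytosis, 3 lay above and 3 below, near the 18.2% and 22.8% of all genes. Their median was 0.07, or -0.04 with library size as the only scaling, and none passed.

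The 9 genes that rose were Inka2, Rab37, Endou, Tpbgl, E130120K24Rik, Gucy2e, Tmem229b, Ppp1r1b and Ptgds, of which Inka2, E130120K24Rik and Ptgds fall outside the naming rule and were named after their values were seen. Ptgds, the prostaglandin D synthase, was at 26490 and 22340 CPM in Ctrl and at 41930 and 43460 CPM in KO (0.81, SE 0.38, DESeq2 adjusted p = 0.0352). Rab37, a small GTPase of secretion, was at 39.2 and 39.2 CPM in Ctrl and at 111 and 71.7 CPM in KO (1.22, SE 0.28, DESeq2 adjusted p = 0.0109). Tmem229b was at 308 and 351 CPM in Ctrl and at 580 and 633 CPM in KO (0.88, SE 0.23, DESeq2 adjusted p = 0.0227). Ppp1r1b, encoding the protein phosphatase inhibitor DARPP-32, was at 56.0 and 37.0 CPM in Ctrl and at 128 and 80.0 CPM in KO (1.16, SE 0.34, DESeq2 adjusted p = 0.0489). The 12 most positive differences among genes with a mean log2 CPM of at least 5 ran from 0.86 (Slc41a2) to 1.31 (Tpbgl), and others of these were Rab37, Ppp1r1b, Enho, Sult1c1, Gucy2e, Endou, Fetub, Tmem229b and Spire2. The higher genes were thus both fewer and smaller in size than the lower ones.

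Markers of the neural retina and the immune system varied with the library more than with the group. The 14 rod genes summed to 2177 CPM in Ctrl1, 568 CPM in Ctrl2, 2186 CPM in KO1 and 2105 CPM in KO2, and 1 of them lay above, so Ctrl2 was the library that stood apart. The 8 cone genes did so too, at 69.3 and 34.7 CPM in Ctrl and 72.8 and 72.0 CPM in KO. Of 9 inner retina genes 2 lay below and 1 fell, beside 22.8% and 7.37% of all genes, while 18.2% of all genes lay above. The 15 myeloid genes had a median of 0.12, but of -2.28 without KO2: their sum was 1573 and 1001 CPM in Ctrl, 868 CPM in KO1 and 2780 CPM in KO2. KO1 was below KO2 in 14 of them. Most of the KO1 sum came from Csf1r, the 1 member that lay above, at 563 and 431 CPM in Ctrl and 737 and 670 CPM in KO. Cd68 was at 67.7 and 65.9 CPM in Ctrl, 10.5 CPM in KO1 and 188 CPM in KO2. Lyz2, the lysozyme of macrophages, was at 480 and 308 CPM in Ctrl, 52.8 CPM in KO1 and 1320 CPM in KO2, so the KO libraries lay on opposite sides of the Ctrl libraries.

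The remaining lists held few counts or few differences, beside 22.8% of all genes that lay below and 7.37% that fell. Of 7 Schwann cell genes tested, 4 lay below and 2 fell, Erbb3, which surface epithelia also use (10.4 and 50.9 CPM against 0.251 and 0.172 CPM), and Prx (8.61 and 4.34 CPM against 0.940 and 1.27 CPM). Of 5 erythrocyte genes none was outside the Ctrl range in both KO libraries, and lymphocyte, mast cell and skeletal muscle markers summed to at most 66.1 CPM in a library. Y-linked transcripts were found in all 4 libraries.

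Whether the KO effect differed between the control types was tested with all 14 libraries in a single fit, each set keeping its own KO libraries. Against the WT set, the difference of the KO effects passed an adjusted p of 0.05 in edgeR for 766 of 17662 genes that were lower in the Ctrl set (4.34%) and for 143 that were higher (0.81%). Against the CreCtrl set it passed for no gene in edgeR (0%), with 1545 at an unadjusted p under 0.05 and 117 by DESeq2. Without KO1 edgeR passed 15 genes and without Ctrl1 189. Control genotype and set go together, so that a difference of genotype and one of preparation cannot be told apart.

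Several lists of RPE function held genes with a lower KO effect in the Ctrl set than in the WT set, and others held few. Of 16 ion and metabolite transport genes 10 differed in that direction, as did 38 of 74 oxidative phosphorylation, 10 of 18 fatty acid oxidation and ketogenesis, 6 of 10 melanin and 4 of 10 RPE genes, against the 4.34% of all genes. Fewer did so among lysosomal (1 of 18), lipid droplet (1 of 14), lipoprotein and cholesterol transport (1 of 15) and apical microvilli and phagocytosis genes (2 of 13). The 5 genes with the smallest adjusted p were Oca2 (melanosome ion transport), Fam213a, Lhx2 (an eye-field factor), Mogat1 (an acyltransferase) and Gpm6a. For Oca2 the KO effect was 0.42 in the Ctrl set, 2.97 in the WT set and 1.07 in the CreCtrl set. For Lhx2 it was 0.23, 2.33 and 0.85, and the difference from the WT set passed for both (edgeR adjusted p = 0.00235 and 0.00544). The median effect over the RPE list was 0.58 in the Ctrl set, 1.81 in the WT set and 0.63 in the CreCtrl set. On the scale of all 14 libraries, this list summed to 49080 and 49220 CPM in Ctrl and to 16940 to 24370 CPM in WT. In the KO libraries it was 75080 and 77440 CPM in the Ctrl set and 77030 to 85900 CPM in the WT set. For this list the sets thus differed more in their controls than in their KO libraries, and the cause was not tested. The count of differing genes depended on single libraries, at 138 without Ctrl2, 100 without KO2 and 1459 without Ctrl1.

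In summed level, the surface epithelium genes were higher in both Ctrl libraries than in any other control library. On the scale of all 14 libraries the list summed to 2321 and 12620 CPM in Ctrl, to between 11.1 and 1265 CPM in the 3 WT libraries, and to 0.381 and 42.7 CPM in CreCtrl. In the KO libraries of the WT set it ran from 501 to 1057 CPM, and in those of the CreCtrl set it was 0.452 and 179 CPM. Krt12 was at 253 and 3970 CPM in Ctrl and at no more than 5.91 CPM in any of the other 12 libraries. Other members were less confined to Ctrl. Krt4 was at 95.8 and 232 CPM in Ctrl, at up to 138.5 CPM in WT and at 72.4 to 80.5 CPM in the KO libraries of the WT set. Krt5 was at 904 and 5066 CPM in Ctrl, at up to 448 CPM in WT and at 163 to 376 CPM in those KO libraries. The median KO effect over the list was -9.88 in the Ctrl set but 0.69 and 2.29 in the WT and CreCtrl sets, and it differed from the WT set, by edgeR, for 4 of 10 members, Sprr1a, Krt17, Krt6a and Krt14 (adjusted p from 0.0103 to 0.0444). For Krt6a the effect was -11.98 in the Ctrl set and 1.86 in the WT set.

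The immediate-early genes did not show such a split. Their summed level was 8667 and 13240 CPM in Ctrl and 633 and 2459 CPM in its KO libraries, 16740 to 20220 CPM in WT and 1350 to 3012 CPM in its KO libraries, and 6228 and 6599 CPM in CreCtrl and 541 and 987 CPM in its KO libraries. The median KO effects were -2.88, -3.27 and -3.10 in the Ctrl, WT and CreCtrl sets. Against the WT set the difference passed edgeR for none of the 20 genes. Over all genes it passed for 4.34% that were lower and 0.81% that were higher in the Ctrl set. Against the CreCtrl set it passed for 0% of all genes, so no list could differ there. Such counts do not show that the effects were equal. Fibroblast medians were -2.94, -3.88 and -3.34, and 1 of 10 genes had a higher effect than in the WT set, beside 0.81% of all genes. Clic4 itself was at 62.1 and 71.5 CPM in Ctrl, at 86.6 and 108 CPM in CreCtrl and at 218 to 230 CPM in WT, and at 9.79 to 33.9 CPM over the KO libraries of all sets.

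**Figure D5:**
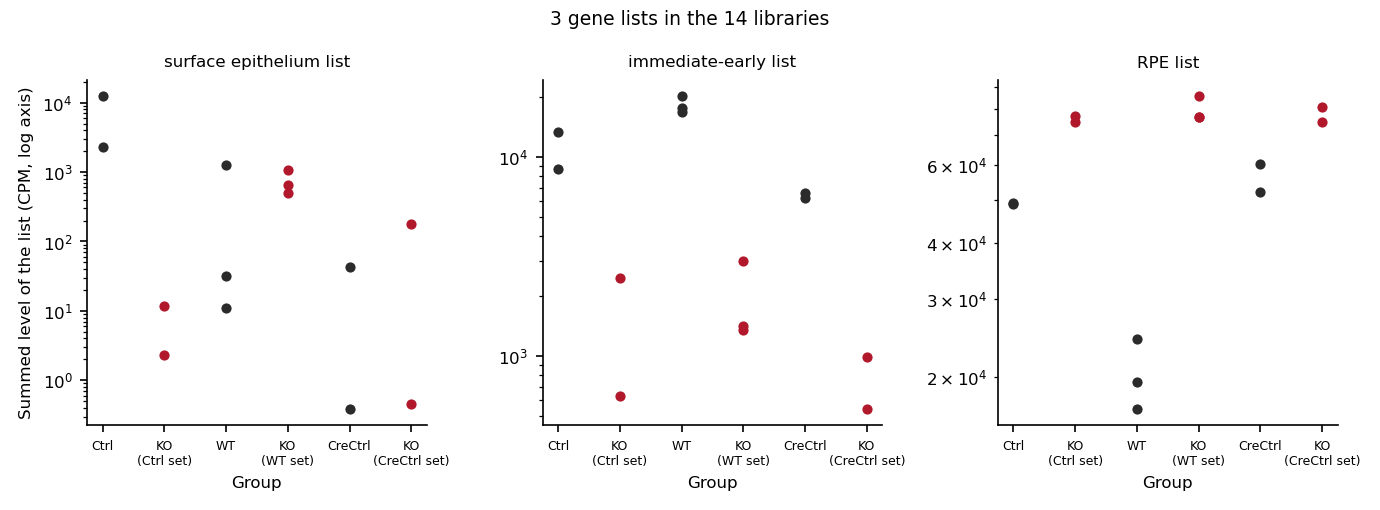
Summed level (y axis, CPM on the scale of all 14 libraries, log axis) of the surface epithelium, immediate-early and RPE lists by group (x axis), 1 point a library, with KO libraries in red. Surface epithelium genes are high in both Ctrl libraries, while immediate-early genes are lower and RPE genes higher in KO than in the controls of each of the 3 sets.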

How the data were processed

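RPE cells were detached with trypsin after removal of the retina, RNA was prepared from both eyes of a mouse, and libraries were made with the TruSeq Stranded mRNA kit and sequenced as paired ends on a NovaSeq 6000. The authors aligned reads to GRCm38 with STAR 2.5.2 and deposited raw counts per Ensembl gene for 14 libraries. The submitters' processing notes also name Cufflinks 2.1.1, HTSeq 0.11.2 and bcl2fastq 2.19, and whether counting used strand is not given in the sources used here. Krt5, Krt6a, Krt12, Lypd3, Muc4, Tpbgl, Ppp1r1b and Enho overlap exons on the opposite strand.

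Of 42687 genes, 42329 were named from GENCODE M21. Counts of Ctrl (2) and KO (2) were tested with edgeR 4.0.16 (filterByExpr, TMM, glmQLFTest with 4.0.16 defaults, R 4.3.3), with Benjamini-Hochberg adjustment over the 15287 genes tested. A call needed an adjusted p under 0.05 and a fold change over 1.5. DESeq2 1.42.0, the study's tool, was an alternative. Effects between sets were tested as differences of log2 fold changes in a fit of 14 libraries and 6 groups. Mean log2 CPM used a prior count of 2. The steps were tested on simulated data.

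The genes and the 38 gene lists were chosen with earlier results of these data known. Named were Clic4, the 12 most negative and 12 most positive differences (mean log2 CPM of at least 5, unadjusted p under 0.05, groups not overlapping), the 3 members of each list with the most CPM and its DESeq2 calls where 5 or fewer, and 5 genes of the test between sets. Others were named after their values were seen. Some genes that the rule selects are not reported here. Libraries come from separate mice, and intervals of counts cover counting error only. Mitochondrially encoded genes were not analysed here. Promoter sequences are RefSeq's (GRCm38.p6). Alternatives covered scaling, filters, edgeR options, the replicate block and each library left out.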

Additional observations from a re-analysis of the deposited data

Results flagged for a closer look

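The KO effect was flagged for 909 genes because it differed between the Ctrl set and the WT set in edgeR's test of the difference itself, at an adjusted p of 0.05 over 17662 genes. The difference of log2 fold changes, Ctrl set minus WT set, was -2.55 for Oca2, -2.75 for Fam213a, -2.11 for Lhx2, -2.03 for Mogat1 and -2.67 for Gpm6a, the 5 genes with the smallest adjusted p at a mean log2 CPM of at least 5. In each of them the effect was positive in both sets and smaller in the Ctrl set. The control genotype and the set cannot be told apart in this design. No group of 4 or more libraries was compared, so single outlying libraries were not tested.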

How the results depend on the processing

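Against the 0 genes that edgeR called, DESeq2 called 1166 of all genes (1157 lower, 9 higher), a filter of at least 1 count over the 4 libraries 1658, the fit of all 14 libraries 647, edgeR with legacy = FALSE 1, and single left-out libraries 0 to 512. The 94 higher genes at an unadjusted p became 33 with library size as the only scaling, 200 with every gene of at least 1 count, 195 in the fit of all 14 libraries, and 44 to 370 with a library left out. The 1735 lower genes stayed within 1.5 times under every alternative run. The Clic4 difference kept its direction throughout, and passed with every gene of at least 1 count (-1.63, edgeR adjusted p = 2.62e-05, over a range of adjusted p up to 0.582). The 909 genes that differed from the WT set became 596 with RLE scaling, 548 with library size, 2262 with every gene of at least 1 count, 1636 with DESeq2 and 100 to 1459 with a library left out. The 0 that differed from the CreCtrl set became 883 with every gene of at least 1 count, 117 with DESeq2 and 0 to 189 with a library left out. The cause was not tested.

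A replicate block called 113 genes, all lower. The labels do not say that the numbers pair libraries. The deviations of same-numbered libraries had r = -0.0059 across 15287 genes, and a single pair of deviations cannot show whether the libraries were paired. With the block, the difference turned for Acta2 (0.077), Lmod1 (0.022) and Lyz2 (-0.53), and the median for myeloid (-0.58), mast cell (0.038) and inner retina genes (8.3e-05).

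Other differences that turned were near 0 or rested on 1 library. With library size as the only scaling, which moved the median of all genes from 0.01 to -0.11, Ctnnb1 (-0.10), Dct (-0.026), Timp2 (-0.059) and the medians of the myeloid (-0.021), apical microvilli and phagocytosis (-0.044), lipid droplet (-0.00698) and sex (-0.014) lists turned. Ctnnb1 was -0.0012 with every gene of at least 1 count and -0.025 with 10 counts in every library, where skeletal muscle was 0.063. With a library left out, differences ran from -0.58 to 0.75 for Acta2, -0.54 to 0.66 for B2m, -3.29 to 0.11 for Cd74, -0.17 to 0.58 for Col8a1, -0.036 to 0.41 for Ctnna1, -0.15 to 0.16 for Ctnnb1, -0.19 to 0.42 for Dct, -2.32 to 0.12 for H2-D1, -0.53 to 0.96 for Hspa8, -0.50 to 0.60 for Lmod1, -2.90 to 1.74 for Lyz2, -0.12 to 0.24 for Timp2 and -0.029 to 0.74 for Timp3. List medians ran from -0.14 to 0.34 (melanin), -2.28 to 0.96 (myeloid), -0.25 to 0.38 (mast cell), -0.093 to 2.35 (rod), -0.21 to 2.42 (cone), -1.17 to 0.0033 (inner retina), -3.12 to 0.011 (skeletal muscle), -0.65 to 0.32 (sterol) and -0.12 to 0.20 (sex). Where a library is left out, the lone library of its group is taken to vary like the other group.

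Each group held 2 libraries, and the Ctrl libraries differed in depth (14276129 and 28581114 counts). Of the 1735 lower genes, 220 had at most 3 counts over both KO libraries and 97 had none, so the size of their difference is limited by depth.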

Other observations

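The summed level of ribosomal protein genes differed widely between the sets, and within the Ctrl set it was lower in both KO libraries. On the scale of all 14 libraries the list summed to 3305 and 3713 CPM in Ctrl and to 2240 and 2900 CPM in its KO libraries. In CreCtrl it summed to 9233 and 10110 CPM and in its KO libraries to 9840 and 9849 CPM, and in WT to between 14250 and 17750 CPM and in its KO libraries to between 11790 and 14860 CPM. The median KO effect over the list was -0.37 in the Ctrl set, -0.18 in the WT set and -0.01 in the CreCtrl set. No member differed between the Ctrl and WT sets at an adjusted p of 0.05 in edgeR. Over all genes, 4.34% differed in the lower and 0.81% in the higher direction.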
